A study of Mus musculus with 18 samples.

Results

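The comparison set astrocytes from the primary motor cortex of trained mice against those of untrained mice, to ask which genes differ from the untrained state in the same direction early and late in the learning of a motor task. The trained set pooled 12 of the 18 libraries, 6 labelled novice and 6 labelled expert, and the other 6 libraries were labelled naive. All mice were C57BL/6. Novice mice had 3 days of training on a cued lever push rewarded with water and were 11 to 13 weeks old, expert mice were fully trained and 13 to 15 weeks old, and naive mice were untrained and 12 to 21 weeks old, with 2 female and 4 male libraries by label in each group. Training followed water restriction, and the sources used here do not say whether naive mice were restricted too, so training and its circumstances cannot be told apart. Values are in FPKM, a fragment number divided by transcript length in kilobases and by the mapped total of the library. The test covered the 11141 of 23924 genes that reached 5 FPKM in 6 or more libraries.

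Astrocytes take up glutamate and potassium released by active neurons, supply lactate and cholesterol, and touch both synapses and blood vessels with fine processes. They respond to noradrenaline and other neuromodulators through receptors that raise calcium or cyclic AMP. Cyclic AMP acts through the transcription factor CREB on rapid response genes such as Sik1 and Dusp1, and stress hormones act through the glucocorticoid receptor on genes such as Tsc22d3 and Ddit4. Primary motor cortex is a site where circuits are rewired as a movement is learned.

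The labelled cell type was checked on 10 astrocyte markers, all of which passed the filter, with a summed level of 1254 to 6301 FPKM in trained and 1295 to 5148 FPKM in naive libraries. Markers of other cells were present at lower sums, at 162 to 666 FPKM in trained and 218 to 321 FPKM in naive libraries for 10 endothelial markers, and at 167 to 1246 FPKM in trained and 136 to 909 FPKM in naive libraries for 10 neuronal markers. The brain cytoplasmic RNA Bc1 is in none of the marker sets, so the sums above leave it out, and which cells it came from was not tested. It made up 6.76% to 59.6% of the summed FPKM in trained and 6.01% to 54.8% in naive libraries. Exact permutation tests over 18564 splits called no difference between trained and naive libraries in any of 9 marker sets or in the signal over 1586 genes of families silent in brain, such as olfactory receptors (smallest p = 0.11 for oligodendrocyte markers, adjusted p = 0.71). That silent-family signal split the libraries into a low class of 10, at 0.301 to 3.31 FPKM, and a high class of 8, at 4.65 to 6.70 FPKM. The high class held 4 of 6 novice, 2 of 6 expert and 2 of 6 naive libraries, so the class was not evenly spread over the stages. Expert 3 stood apart with the lowest signal, and Xist and Ddx3y of novice 1 and novice 3 went against the labelled sex. Both are novice libraries, and without them limma called 0 genes, while 211 lay on the same side at both stages at an unadjusted p under 0.05.

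No gene passed the test of trained against naive. With limma, the count of genes at an adjusted p under 0.05 was 0 of 11141 (0%), and 206 (1.85%) had an unadjusted p under 0.05, where an even spread of p would give 557.05. The smallest adjusted p was 1.0. In the same fit 0 genes were called for either stage alone, with 485 (4.35%) at an unadjusted p under 0.05 for novice against naive and 354 (3.18%) for expert against naive. No gene had all 12 trained libraries above, or all 12 below, the 6 naive ones (0%). The values below are therefore descriptions of the genes with the smallest p, none of which is a called difference.

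**Figure D1:**
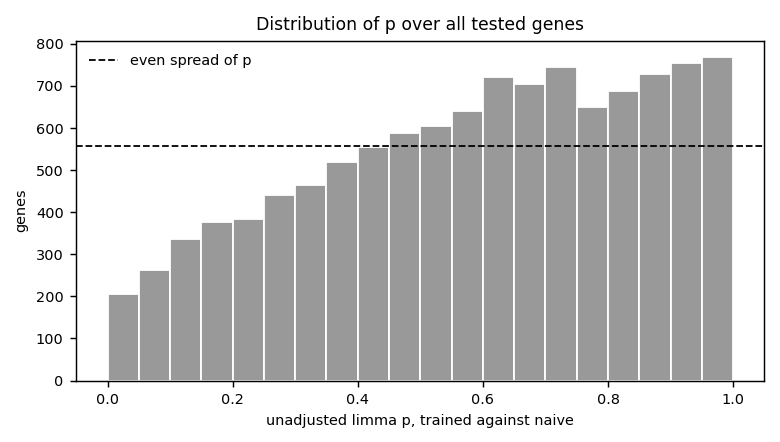
Number of genes (vertical axis) by unadjusted limma p for trained against naive (horizontal axis, bins of 0.05) over the 11141 tested genes. The lowest bin holds 206 genes, under the 557.05 of the dashed line that marks an even spread, and the highest bin holds 769.

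Both stages lay on the same side of naive for 4746 genes (42.6%), of which 2011 (18.1%) were higher and 2735 (24.5%) lower, while 6395 lay on opposite sides. The stage comparisons share the 6 naive libraries, so this split is only a count. Of the 206 genes with an unadjusted p under 0.05, 205 (1.84%) lay on the same side at both stages, 113 higher (1.01% of genes tested) and 92 lower (0.826%). A difference of at least 0.4 on the log2(FPKM + 1) scale at each stage was seen for 180 genes on the higher side (1.62%) and 178 on the lower side (1.60%). Fold changes are on that scale throughout, which understates the change of low genes, and the 12 named genes on either side are those of smallest p within these sets.

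The higher side was led by Dynlrb2, a light chain of the dynein motor that carries cargo in cells and cilia. Its level was 1.81 FPKM at the lowest, 7.36 FPKM at the median and 16.5 FPKM at the highest of the 12 trained libraries, and it was listed at 0 in 4 of the 6 naive libraries, with 2.73 and 8.85 FPKM in the other two. The log2 fold change was 2.10 (SE 0.48, limma adjusted p = 1.0), with 1.82 in novice and 2.37 in expert. Every trained library had some signal, but the ranges overlapped. Naive 3 lay above 8 of the 12 trained libraries, and naive 4, at 2.73 FPKM, lay above novice 2, at 1.81 FPKM. On a transcript of 527 nucleotides 1 fragment was worth 1.15 to 3.54 FPKM, so these levels rest on few fragments. Dynlrb2 is also among the 6 ependymal markers used here, of which 3 were tested. Of these, Dynlrb2 was the 1 higher at both stages and Rarres2 (-0.33) the 1 lower at both. The part of ependymal cells was not tested.

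Rpa3, the small subunit of the replication protein A complex that coats single-stranded DNA, had 3.11, 5.06 and 11.3 FPKM as the lowest, median and highest trained values. It was listed at 0 in 3 naive libraries and reached 5.93 FPKM in naive 1. The difference was 1.57 (SE 0.41) on the log2 scale, again with ranges that overlapped, and 1 fragment was worth 0.901 to 2.79 FPKM. Zfp91Cntf, a read-through locus that shares its sequence with its neighbours Zfp91 and Cntf and so cannot be counted apart from them with certainty, stood at 1.97 to 7.06 FPKM in trained libraries and at most 4.87 FPKM in naive ones, where 1 library was listed at 0. Since no naive library reached 5 FPKM, the locus passed the filter only through trained libraries.

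Sik1, a kinase that CREB induces and that restrains CREB coactivators, and on whose transcript 1 fragment was worth 0.134 to 0.413 FPKM, had 5.71 FPKM at the lowest, 9.70 FPKM at the median and 16.1 FPKM at the highest in trained libraries, against 3.57, 6.04 and 8.13 FPKM in naive libraries. The mean was 8.21 ± 2.13 FPKM in novice, 11.5 ± 3.34 FPKM in expert and 5.81 ± 1.70 FPKM in naive (SD, n = 6 each). Of the 12 trained libraries, 8 lay above every naive one and none below the lowest naive one. The log2 fold change was 0.66 (SE 0.19, limma adjusted p = 1.0).

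Ctbs, a lysosomal chitobiase that trims the stubs of glycans, averaged 5.23 ± 0.712 FPKM in novice, 6.72 ± 1.81 FPKM in expert and 3.61 ± 1.45 FPKM in naive libraries (log2 fold change 0.63, SE 0.19). Arl4d, a small GTPase of the ARF-like family, stood at 6.26 ± 2.10, 6.07 ± 1.83 and 3.29 ± 1.74 FPKM in novice, expert and naive libraries, so that the stages lay close together (0.79 and 0.77 on the log2 scale). Gltp, a carrier of glycolipids between membranes, had 5.62 to 16.1 FPKM in trained and 2.12 to 8.20 FPKM in naive libraries (log2 fold change 0.73, SE 0.24). For each of these genes at least 5 trained libraries exceeded the highest naive one. Slc25a30, a carrier of the inner mitochondrial membrane, ranged from 2.69 to 8.57 FPKM in trained libraries and was listed at 0 in 1 naive library, with 5.02 FPKM as the highest.

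Efna1, the ephrin-A1 ligand of Eph receptors, stood at 1.39, 5.07 and 9.48 FPKM at the lowest, median and highest of the trained libraries, against 0.686, 1.77 and 3.79 FPKM of the naive ones (log2 fold change 1.01, SE 0.32). Its stage values were 1.05 in novice and 0.97 in expert, and 8 trained libraries exceeded every naive one. No naive library reached 5 FPKM, so Efna1 too passed the filter only through trained libraries and its separation is in part set by the filter. Dynlrb2, Rpa3, Ctbs, Slc25a30 and Arl4d, and Ghrl, Gkn3 and Ebf1 below, passed it mostly through trained libraries, so the filter bears on them too. Ghrl, the precursor of the hormone ghrelin, had novice values of 5.82 to 39.6 FPKM and expert values of 2.38 to 8.62 FPKM, and was listed at 0 in 2 naive libraries with 8.48 FPKM as the naive maximum. Its 2 stages differed in size, at 2.12 and 0.88 on the log2 scale, and only expert 1, at 8.62 FPKM, lay above the naive range among the expert libraries.

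Gkn3, a secreted gastrokine known as a marker of arterial endothelium in mouse brain, had 2.87, 9.08 and 20.6 FPKM in trained and 1.46, 3.77 and 5.86 FPKM in naive libraries at the lowest, median and highest (log2 fold change 0.98, SE 0.32). Ebf1, a transcription factor found in brain pericytes, stood at 4.70, 6.47 and 10.7 FPKM in trained libraries, against 2.77, 3.83 and 6.5 FPKM in naive libraries (0.61, SE 0.19). Markers of endothelial cells had a median log2 fold change of 0.29 over 10 genes, with 5 (50%) higher at both stages and 0 lower at both. Those of pericytes and smooth muscle had 0.19 over 8 genes, with 4 (50%) and 0, against 18.1% and 24.5% of all tested genes. Both medians were carried by the expert libraries, at 0.61 and 0.42 in expert and 0.01 and -0.01 in novice. In the low silent-family class they were 0.14 and 0.05, and in the high class 0.19 and 0.05. The part of vessel cells in Gkn3 and Ebf1 was not tested. In bulk libraries such as these, more or fewer cells of a type and more or less RNA per cell cannot be told apart.

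**Figure D2:**
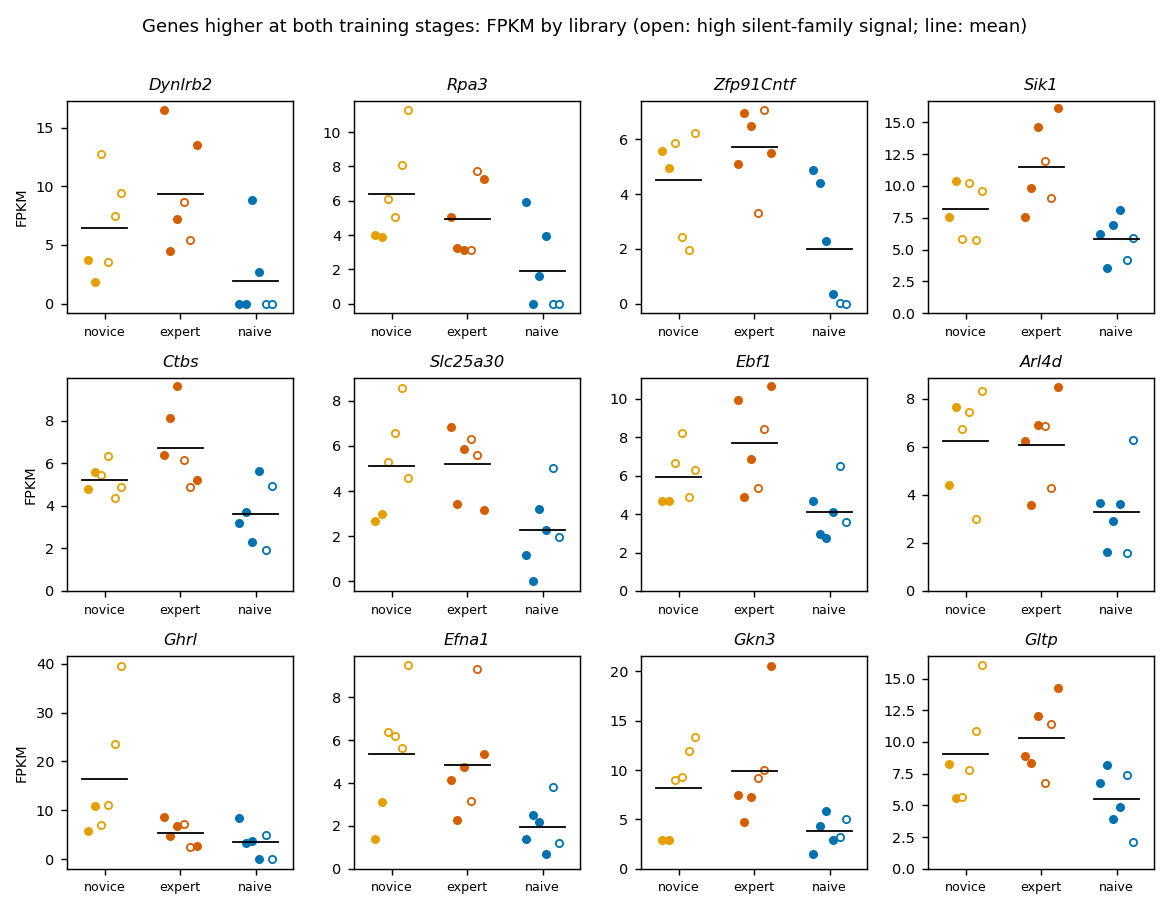
FPKM (vertical axis) in each library of the 12 genes of smallest p on the higher side, by group. Points are libraries, open where the silent-family signal was 4 FPKM or more, and the line is the group mean. Between 4 and 9 of the 12 trained libraries lie above the highest naive library in each panel.

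The lower side was led by Tmem134, a membrane protein. It had 1.04 FPKM at the lowest, 5.38 FPKM at the median and 10.9 FPKM at the highest of the trained libraries, against 9.80, 12.8 and 16.6 FPKM of the naive ones. Only novice 1 and expert 1 reached into the naive range, and the other 10 trained libraries lay under it. The mean was 5.42 ± 3.17 FPKM in novice, 6.76 ± 3.75 FPKM in expert and 13.0 ± 2.54 FPKM in naive libraries, a log2 fold change of -1.16 (SE 0.34, limma adjusted p = 1.0). Within the silent-family classes it was -0.57 in the low and -1.74 in the high class.

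Eif4a3, the RNA helicase at the core of the exon junction complex, averaged 11.8 ± 2.88 FPKM in novice, 13.1 ± 4.15 FPKM in expert and 18.9 ± 3.32 FPKM in naive libraries (-0.60, SE 0.19). Its trained values ran from 6.44 to 17.2 FPKM and its naive values from 14.7 to 23.6 FPKM, with 7 trained libraries under the lowest naive one. Farsa, a subunit of the phenylalanyl-tRNA synthetase, had 2.5, 4.93 and 6.5 FPKM at the lowest, median and highest in trained and 5.78, 6.90 and 10.1 FPKM in naive libraries (-0.56, SE 0.18), and 10 of 12 trained libraries lay under every naive one. Snrnp35, a protein of the minor spliceosome, stood at 2.54 to 9.87 FPKM in trained libraries, against 5.04 to 18 FPKM in naive libraries (-0.72, SE 0.28), with wide overlap. Of the list of RNA splicing factors, 11 of 44 tested members were lower at both stages and 7 higher, which is 25% and 15.9% against 24.5% and 18.1% of all genes, so this list lay at the background.

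Nagk, the kinase that salvages N-acetylglucosamine, averaged 5.56 ± 2.34 FPKM in novice, 5.76 ± 1.68 FPKM in expert and 10.7 ± 2.99 FPKM in naive libraries (-0.85, SE 0.26). Naive 5, at 5.06 FPKM, lay within the trained range of 1.19 to 8.06 FPKM, and the other naive libraries lay above it. Lcmt1, the methyltransferase of the catalytic subunit of protein phosphatase PP2A, stood at 6.20 ± 3.12, 6.60 ± 2.87 and 11.0 ± 2.3 FPKM in novice, expert and naive libraries (-0.78, SE 0.25). Fn3k, a kinase that removes sugar adducts from proteins, had 3.31 to 11.0 FPKM in trained and 7.06 to 16.0 FPKM in naive libraries (-0.62, SE 0.21). Nudt8, a hydrolase of the Nudix family, was listed at 0 in novice 6 and ranged up to 8.67 FPKM in trained libraries, against 3.24 to 10.3 FPKM in naive ones.

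Jtb, a small membrane protein, averaged 9.53 ± 3.30 FPKM in novice, 13.2 ± 7.64 FPKM in expert and 19.3 ± 4.86 FPKM in naive libraries (-0.81, SE 0.27). All trained libraries but expert 3, at 27.4 FPKM, lay under the lowest naive value of 14.3 FPKM. The remaining 3 were Zcchc10, a zinc knuckle protein (-0.66), Tnnt1, the slow skeletal troponin T (-0.73), and Sdr39u1, a dehydrogenase-like protein (-0.70), each with 5 or 7 trained libraries under the naive range. The filter bears on the lower side too. Snrnp35, Nudt8 and Tnnt1 reached 5 FPKM in more naive than trained libraries, so their separation is in part set by the filter.

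**Figure D3:**
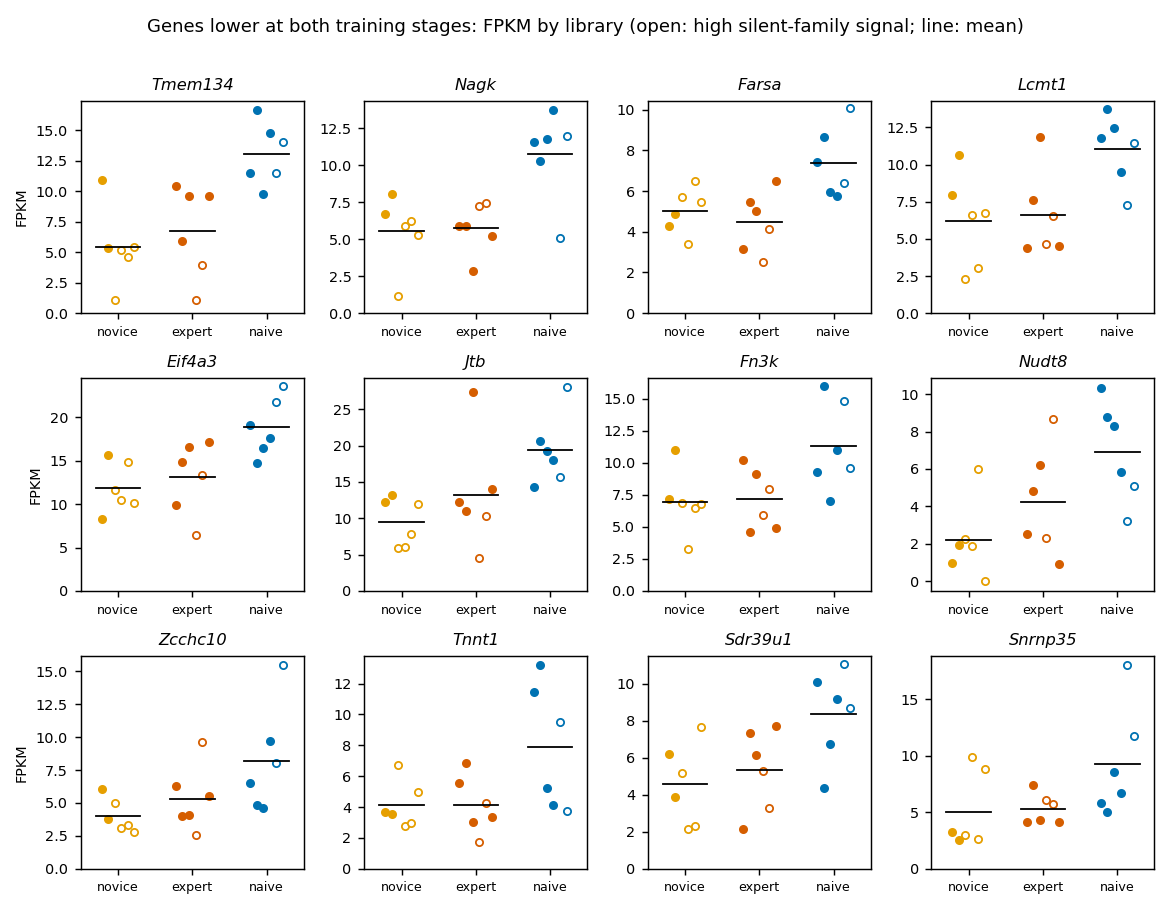
FPKM (vertical axis) in each library of the 12 genes of smallest p on the lower side, by group. Points are libraries, open where the silent-family signal was 4 FPKM or more, and the line is the group mean. Between 2 and 11 of the 12 trained libraries lie under the lowest naive library in each panel.

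Within the silent-family classes, the difference in mean log2(FPKM + 1) between trained and naive libraries was 0.60 to 1.57 in the low and 0.36 to 3.06 in the high class for the 12 higher genes, and -1.42 to -0.29 in the low and -1.74 to -0.50 in the high class for the 12 lower ones. These genes were picked for their difference over the same libraries, so the values are a description and no check of it, and the high class has 2 naive libraries.

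Mrps16, of the small subunit of the mitochondrial ribosome, shows what the 0.4 minimum at each stage leaves out. Its trained values were 3.65, 9.94 and 27.1 FPKM at the lowest, median and highest, against 13.3, 19.2 and 45.0 FPKM in naive libraries (log2 fold change -0.98, SE 0.28). The novice mean was 6.91 ± 3.10 FPKM, the expert mean 17.2 ± 7.32 FPKM and the naive mean 23.2 ± 12.0 FPKM, so that most of the pooled difference came from novice (-1.57, against -0.38 in expert). The mitochondrial ribosome as a group had 27 of 75 members (36%) lower at both stages and 13 (17.3%) higher, against 24.5% and 18.1% of all tested genes. The group's median was -0.02 against -0.03 over all genes. Its members with an unadjusted p under 0.05, of which Mrpl34 and Mrpl32 were chosen after their values were seen, were Mrps16, Mrpl34 (-1.12) and Mrpl32 (-0.87) on the lower side and Mrps31 (0.61) on the higher.

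Rapid response genes lay mostly on the higher side. Of 27 immediate early genes tested, 14 (51.9%) were higher at both stages and 2 (7.41%) lower, against 18.1% and 24.5% of all tested genes, and 4 had an unadjusted p under 0.05, all on the higher side. None passed the adjusted test. The list's median log2 fold change was 0.19, against -0.03 over all genes, with 0.07 in novice and 0.40 in expert. Beside Sik1, Dusp1, a phosphatase that switches off MAP kinases, had 15.0, 19.4 and 51.5 FPKM at the lowest, median and highest in trained libraries, against 8.47, 12.4 and 27.5 FPKM in naive libraries (0.72, SE 0.27). Expert 3 and expert 6 were the highest, at 51.5 and 44.7 FPKM, and naive 4 stood above the other naive libraries at 27.5 FPKM. Without expert 3 the median of the list was 0.12, and over all libraries left out in turn it stayed between 0.12 and 0.31. The other members with an unadjusted p under 0.05, chosen after their values were seen, were Klf6, a zinc finger transcription factor (0.53, SE 0.20), and Ctgf, a secreted matrix-associated growth factor (0.83, SE 0.34). Of the classic neuronal activity markers, Fos, Egr1 and Arc stood at 0.15 (SE 0.30), 0.01 (SE 0.21) and -0.02 (SE 0.62), with opposite signs at the 2 stages. They too were not named by the rule. Nr4a1 and Nr4a2, orphan nuclear receptors of the same class and likewise chosen after their values were seen, stood at 0.36 (SE 0.21) and 0.33 (SE 0.23), nearly alike at both stages.

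Glucocorticoid responsive genes and metallothioneins were mixed. Of 16 tested, 7 (43.8%) were higher at both stages and 3 (18.8%) lower, against 18.1% and 24.5% of all tested genes. Their median was 0.04, which was -0.01 in the high silent-family class. Ddit4, an inhibitor of mTOR signalling, ranged from 3.70 to 18.8 FPKM in trained libraries with a median of 8.60 FPKM, and was listed at 0 in naive 6 with a naive maximum of 8.21 FPKM (1.17, SE 0.41). Tsc22d3, a leucine zipper protein induced by glucocorticoids, averaged 52.0 ± 4.78 FPKM in novice, 54.4 ± 22.2 FPKM in expert and 36.4 ± 13.7 FPKM in naive libraries (0.56, SE 0.24). Its stages were alike in size, at 0.57 in novice and 0.55 in expert, but naive 4, at 60.9 FPKM, lay above all but 2 trained libraries. The metallothioneins Mt1, Mt2 and Mt3, which bind zinc and copper, stood on the lower side, at -0.20, -0.16 and -0.31, Mt2 with opposite signs at the stages, all within their standard errors of 0.36 to 0.41. Sgk1, a kinase and a standard glucocorticoid target, stood at 0.29 (SE 0.20), with 0.28 in novice and 0.30 in expert. Sgk1 and the metallothioneins were not named by the rule.

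**Figure D4:**
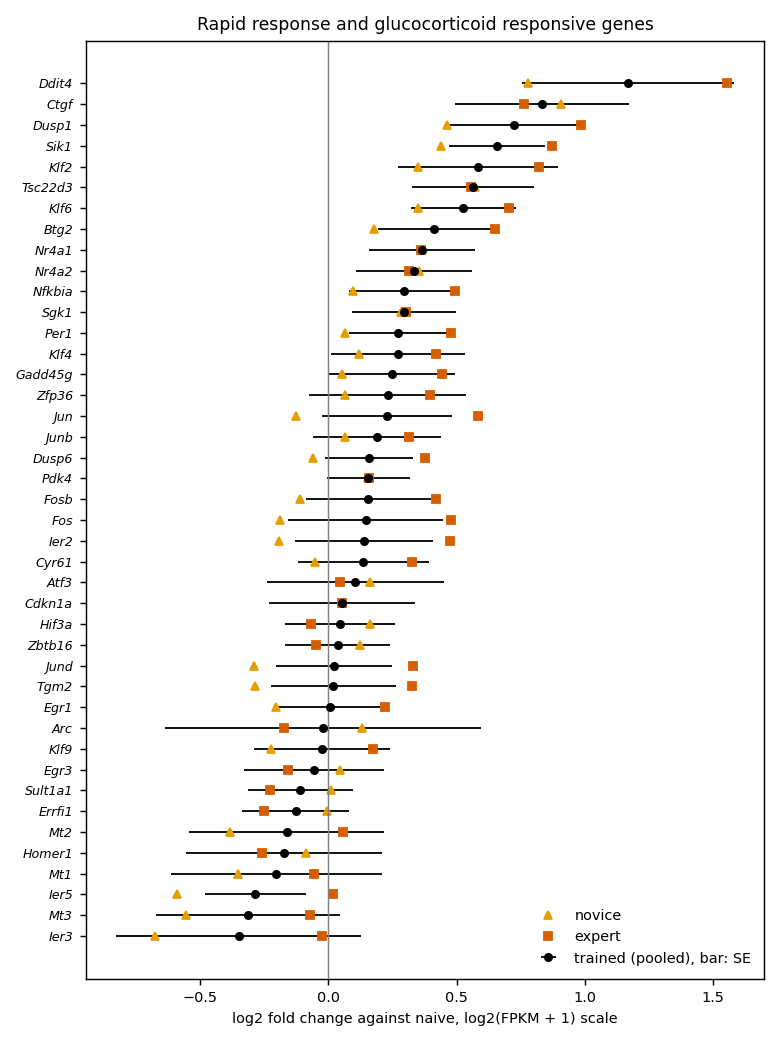
Log2 fold change against naive on the log2(FPKM + 1) scale (horizontal axis) of the tested immediate early and glucocorticoid responsive genes. Black points with bars are trained libraries pooled with the SE of the fit, triangles novice and squares expert. Ddit4 is at the top with 1.17 and Ier3 at the bottom with -0.35.

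The sequence upstream of the start is shown for the genes of both lists that were named by the rule and are in the RefSeq promoter table of build GRCm38.p6, which were 3 of 4, because the lists are grouped by how their genes are switched on. Each is the 250 bases before the start, 5′ to 3′ on the strand of the gene, with matches on either strand in capitals to the cyclic AMP response element TGACGTCA, its core TGACG and the glucocorticoid receptor core AGAACA.
Dusp1 (chr17:26508473-26508722, minus strand): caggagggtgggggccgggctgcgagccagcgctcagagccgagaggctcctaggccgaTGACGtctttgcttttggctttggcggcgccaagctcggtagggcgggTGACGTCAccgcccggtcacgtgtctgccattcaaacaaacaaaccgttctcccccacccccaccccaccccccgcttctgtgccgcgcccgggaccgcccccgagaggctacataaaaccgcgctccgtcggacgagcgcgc
Ddit4 (chr10:59951771-59952020, minus strand): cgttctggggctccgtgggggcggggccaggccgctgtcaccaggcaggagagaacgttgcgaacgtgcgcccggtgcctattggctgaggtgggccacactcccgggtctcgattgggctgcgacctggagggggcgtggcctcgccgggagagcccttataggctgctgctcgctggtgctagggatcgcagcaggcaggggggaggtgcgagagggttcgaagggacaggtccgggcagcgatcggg
Tsc22d3 (chrX:140542669-140542918, minus strand): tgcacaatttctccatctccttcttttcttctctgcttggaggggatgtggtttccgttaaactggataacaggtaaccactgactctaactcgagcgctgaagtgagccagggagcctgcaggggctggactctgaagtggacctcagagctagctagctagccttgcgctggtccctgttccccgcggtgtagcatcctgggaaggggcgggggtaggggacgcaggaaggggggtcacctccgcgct
The Dusp1 stretch held the full element at 143 to 136 bases before the start, which overlaps 2 matches to the core, and a further core at 191 to 187 bases. The full element was found in 2.76% of the 8269 tested genes with a promoter in the table, the core TGACG in 25.9% and AGAACA in 11.0%. No match was found in the Ddit4 and Tsc22d3 stretches, which says only that these letters are not in those windows.

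Of 59 cytosolic ribosomal proteins, 48 (81.4%) were lower at both stages and 2 (3.39%) higher, against 24.5% and 18.1% of all tested genes. The list's median was -0.19 over the pooled comparison, -0.21 in novice and -0.14 in expert. Rpl15, of the large subunit, had 28.6, 44.5 and 54.8 FPKM at the lowest, median and highest in trained libraries, against 35.4, 54.6 and 79.0 FPKM in naive libraries (-0.29, SE 0.20). Rps18, of the small subunit, stood at -0.43 (SE 0.32). None had an unadjusted p under 0.05. The median over all genes of at least 20 FPKM in 6 libraries was -0.09, the list's median was -0.06 after quantile normalization, and it was -0.11 in the low and 0.21 in the high silent-family class. Of 24 glutathione and antioxidant genes, 12 (50%) were lower at both stages and 2 (8.33%) higher, with a median of -0.18. Among them Gsr, glutathione reductase, averaged 6.28 ± 1.56 FPKM in novice, 5.37 ± 1.53 FPKM in expert and 7.99 ± 2.43 FPKM in naive libraries (-0.39, SE 0.18), and Sod2, the superoxide dismutase of mitochondria, stood at -0.30 (SE 0.18). The median of this list was 0.01 in the high class. Nuclear genes of oxidative phosphorylation had 15 of 34 members (44.1%) lower at both stages and 4 (11.8%) higher, with a median of -0.18. In the high class the median was instead 0.30, and 27 of 34 stood higher. Sdhd, a membrane subunit of succinate dehydrogenase, had 7.50, 12.9 and 24.9 FPKM at the lowest, median and highest in trained and 10.5, 20.3 and 29.99 FPKM in naive libraries (-0.43, SE 0.25), with ranges that overlapped.

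Of 10 neuronal markers, 8 (80%) were lower at both stages and 1 (10%) higher, against 24.5% and 18.1% of all tested genes. Their median was -0.20, but none had an unadjusted limma p under 0.24. The median was -0.01 in the low silent-family class, with 5 higher and 5 lower, and 0.30 in the high class. Of 5 oligodendrocyte markers, 3 (60%) were lower at both stages and 0 higher, with a median of -0.28. Mbp, the basic protein of myelin made by oligodendrocytes, had 5.93, 25.3 and 93.4 FPKM at the lowest, median and highest in trained libraries, against 10.7, 93.4 and 159 FPKM in naive libraries (-1.06, SE 0.67). Among 16 interferon response genes, 9 (56.2%) were higher at both stages and 3 (18.8%) lower, with a median of 0.10, which was -0.06 in the high class. Ifi27, an interferon-induced protein, stood at 0.49 (SE 0.26), and Irf3, the transcription factor that starts interferon production, at -0.48 (SE 0.28), with 9 of 12 trained libraries under the lowest naive one. Creld2, a chaperone of the endoplasmic reticulum, had 2.02, 4.40 and 11.5 FPKM at the lowest, median and highest in trained and 4.76, 7.55 and 9.76 FPKM in naive libraries (-0.55, SE 0.26). Leprel4, a partner of collagen-modifying enzymes in the endoplasmic reticulum, stood at 3.0 ± 0.512 FPKM in novice, 5.60 ± 1.53 FPKM in expert and 6.48 ± 1.5 FPKM in naive libraries (-0.53, SE 0.17), with a novice difference of -0.88 and an expert one of -0.18.

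Genes of the astrocyte response to injury were mixed, with 2 of 13 (15.4%) higher and 4 (30.8%) lower at both stages. The shares over all tested genes were 18.1% and 24.5%, so this list lay near the background. Osmr, a receptor subunit for the cytokine oncostatin M, had 2.5, 5.18 and 8.67 FPKM at the lowest, median and highest in trained libraries, against 2.77, 3.65 and 4.18 FPKM in naive libraries (0.38, SE 0.19). Of the trained libraries, 9 lay above every naive one. No naive library reached 5 FPKM, so Osmr passed the filter only through trained libraries and its separation is in part set by the filter. Serpina3n, a secreted protease inhibitor, stood at 3.52, 5.04 and 13.6 FPKM in trained libraries, against 5.90, 7.38 and 13.3 FPKM in naive libraries (-0.46, SE 0.23), and 8 trained libraries lay under every naive one. Tgfb2, a growth factor that astrocytes secrete, averaged 10.7 ± 1.88 FPKM in novice, 14.6 ± 4.94 FPKM in expert and 9.65 ± 2.08 FPKM in naive libraries (0.33, SE 0.18). Gpc6, a glypican that promotes synapse formation, stood at 24.0 ± 1.7, 24.6 ± 7.21 and 20.4 ± 4.52 FPKM in the same groups (0.24, SE 0.18). None of these genes passed the test.

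The astrocyte's own genes did not stand on the same side at both stages. All 18 tested genes of the astrocyte identity list lay on opposite sides of naive, lower in novice (median -0.59) and higher in expert (median 0.19). Opposite sides in either order were seen for 6395 of all 11141 tested genes. The pooled median of the list was -0.19. That median was -0.06 after quantile normalization and 0.21 in the high silent-family class, with 16 of 18 higher, and the high class holds 4 novice but 2 expert libraries. Slc1a2, the main glutamate transporter of astrocytes, had 518, 1108 and 2708 FPKM at the lowest, median and highest in trained libraries, against 548, 1503 and 2341 FPKM in naive libraries (-0.20, SE 0.39). The water channel Aqp4 stood at -0.19 (SE 0.29), the gap junction gene Gja1 at -0.08 (SE 0.33) and the filament gene Gfap at -0.30 (SE 0.25). Of these 4, Slc1a2, Aqp4 and Gja1 were lower in each high silent-family library than in every low one of the same group, and the part of that signal was not tested. Only 1 of 15 genes (6.67%) of glutamate and GABA transport and metabolism was higher at both stages and 3 (20%) lower. Among 21 of cholesterol synthesis the counts were 2 (9.52%) and 3 (14.3%), against 18.1% and 24.5% of all tested genes.

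**Figure D5:**
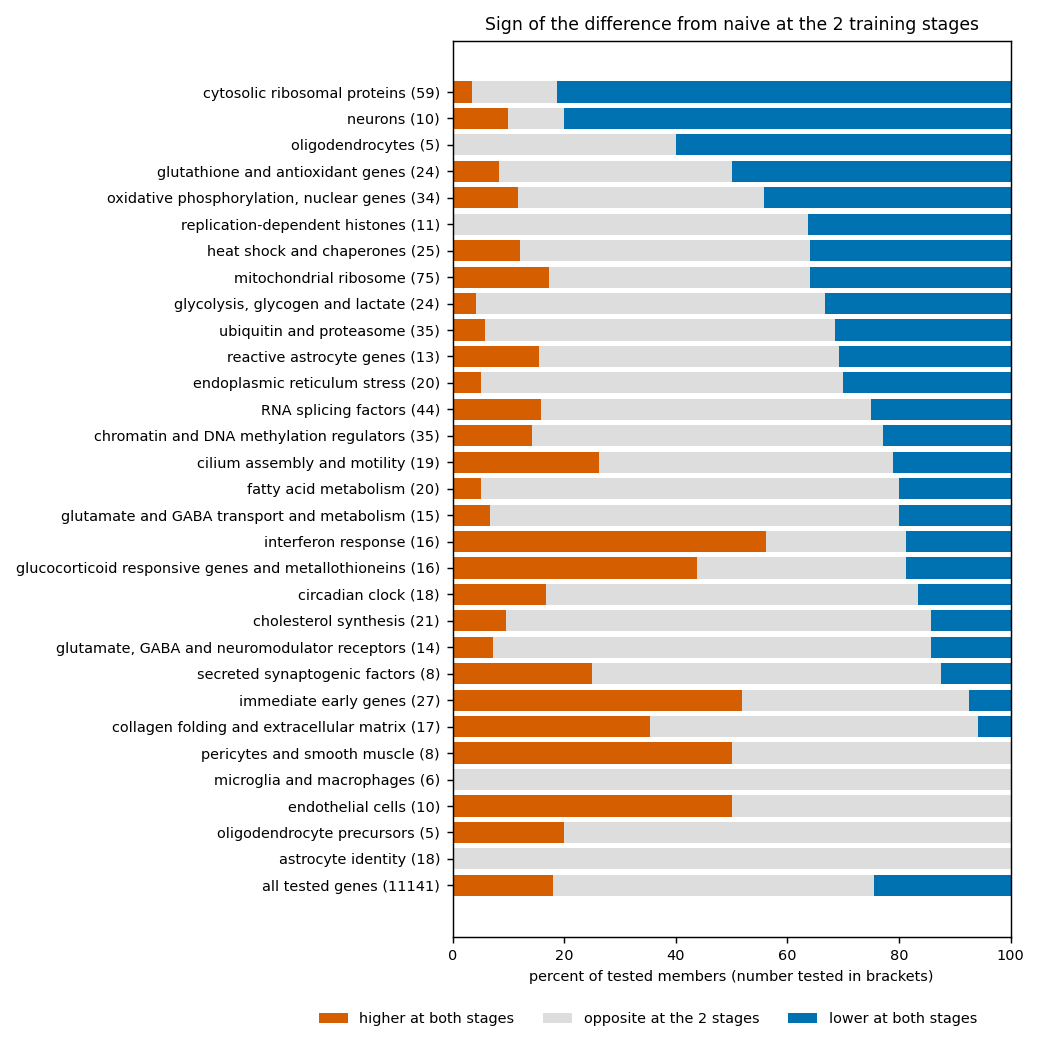
Share of tested members (horizontal axis, percent) of each list with at least 5 tested members that lay above naive at both stages, on opposite sides, or below naive at both. All tested genes are in the lowest bar, at 18.1% higher and 24.5% lower, and the cytosolic ribosomal proteins in the top bar, at 81.4% lower.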

How the data were processed

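Per the labels' protocols, RNA of the isolated astrocytes was released with proteinase K, purified on silica columns and turned into indexed strand-specific libraries (SMARTer Stranded Total RNA-Seq) for Illumina sequencing. TopHat, Cufflinks and build mm9 are named in the submitters' processing notes. Their versions and settings, and the annotation used, were not given in the sources used here. FPKM values were deposited by the authors as 1 table, with 1 column per library. It had 23951 entries, of which 27 had names turned into dates by a spreadsheet and were left out.

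Values were transformed to log2(FPKM + 1), with a pseudocount of 1, after a filter of at least 5 FPKM in at least 6 libraries. They were fitted with limma 3.58.1 in R 4.3.3 (eBayes with trend) on all 18 libraries with 1 mean per group. The contrast was the mean of novice and expert minus naive, two-sided, adjusted over all tested genes by Benjamini and Hochberg at 0.05. The script was tested on simulated data. Marker sets were compared by exact permutation of library labels, two-sided, and adjusted over 10 values.

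Read totals are not among the deposited values. The FPKM of 1 fragment on 1 kb was read from steps in low values of 126 olfactory receptor genes with 1 annotated transcript and was 0.604 to 1.87, except in expert 3, where none was read. Between 2257 and 5430 genes were at 0. Values under 0.001 FPKM are called listed at 0. The labels do not say that libraries came from separate animals, so p-values measure the spread between libraries.

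Named genes are the 12 with the smallest p on each side among those at least 0.4 from naive at each stage, the 2 members of each of 32 lists with the smallest p among those on the same side at both stages, and Slc1a2, Gfap, Aqp4 and Gja1, in all 83 genes, of which the text describes those its results turn on. Some further list members are described that this rule does not name. Predicted loci, olfactory receptors and short noncoding RNAs were counted, not named. The members and lists were chosen with earlier results of these data known. Alternatives covered the pseudocount, filter, scaling, design, covariates, weights and each library left out. Leaving out the libraries that go against the labelled sex and splitting by silent-family class were chosen after seeing the data.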

Additional observations from a re-analysis of the deposited data

Results flagged for a closer look

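In 252 groups of 6 values, 16 held 1 library far from the other five, and chance gives about 1 in 20. Among naive libraries, Dynlrb2 was high in naive 3, at 8.85 FPKM, with 0 to 2.73 FPKM in the rest. Naive 4 was high for Dusp1, at 27.5 FPKM against 8.47 to 15.5 FPKM, Per1, at 14.6 FPKM against 7.20 to 9.19 FPKM, Hspa1a, at 6.58 FPKM against 2.18 to 3.73 FPKM, and Col4a2, at 11.7 FPKM against 7.13 to 8.37 FPKM. Ifi27 was high in naive 2, at 29.2 FPKM against 5.75 to 13.5 FPKM. Leprel4 was low in naive 1, at 3.62 FPKM against 6.54 to 8.05 FPKM.

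Expert 3 was high for Elovl2, at 19.2 FPKM against 8.20 to 11.8 FPKM, Hspa1a, at 15.6 FPKM against 2.55 to 6.83 FPKM, Creld2, at 11.5 FPKM against 3.19 to 5.83 FPKM, and Gfap, at 35.4 FPKM against 11.8 to 20.5 FPKM. Gkn3 was high in expert 6, at 20.6 FPKM against 4.77 to 9.999 FPKM in the other expert libraries. Among novice libraries, novice 2 was high for Sdhd, at 20.9 FPKM against 9.80 to 12.8 FPKM, and Arntl, at 7.25 FPKM against 3.21 to 4.11 FPKM. Rarres2 stood at 37.1 FPKM in novice 5 against 11.7 to 21.0 FPKM, and Serpina3n at 13.6 FPKM in novice 6 against 3.90 to 6.34 FPKM.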

How the results depend on the processing

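No gene was called in 34 of the 35 alternatives run, which changed the pseudocount, filter, scaling, group means, covariates, trend or weights, or left libraries out. The exception was the high silent-family class alone, chosen after seeing the data, where 6 genes were called with 2 naive and 2 expert libraries. The count of 205 genes on the same side with an unadjusted p under 0.05 was 152 to 337 with 1 library left out, the highest without naive 5 and the lowest without naive 2, the oldest at 21 weeks. It was 483 with a filter of 1 FPKM, 542 with no filter and 25 with a filter of 20 FPKM, where more or fewer genes were tested. It was 597 with the silent-family signal as a covariate, 2229 with array weights and 790 in the high silent-family class, for which the cause was not tested. With the replicate block the count was 252 and 0 genes were called. Same-numbered libraries correlated in their deviations at -0.40 to 0.51, over 0.1 in 10 of 18 pairs, so the numbers were not taken to pair the libraries.

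The 24 leading genes were picked for their side over these libraries, so that they kept it in refits of them is no sign of stability. The values here for 1 class are from the fit with 1 mean per stage, not the differences in class means given for the leading genes. Gja1, at -0.08, was 0.091 after quantile normalization, 0.020 in the low and 0.16 in the high silent-family class, and -0.24 to 0.053 with 1 library left out. In the high class Slc1a2 was 0.21, Gfap 0.041, Aqp4 0.056, Mbp 0.035, Tagln -0.078, Got1 0.18, Adora1 0.041 and Tm7sf2 0.30, each the other way from the value over all libraries. As differences in class means Gfap was -0.014 and Mbp -0.12, the same way as over all libraries, so their turn depends on the measure. Elovl2 was -0.17 and Hba-a2 -0.51 in the low class, and with array weights Hba-a2 was -0.24 and Gabrg1 -0.033, where both stood higher over all libraries. The cause was not tested. Of the 12 genes on the higher side, 5 were listed at 0 in at least 1 naive library. Naive 6 was such a library for Dynlrb2, Rpa3, Zfp91Cntf and Ghrl, while Slc25a30 was listed at 0 in naive 2. Dynlrb2 and Rpa3 were also listed at 0 in naive 2 and naive 5, Dynlrb2 in naive 1 and Ghrl in naive 4. In naive 6, 1 fragment on 1 kb was worth 1.87 FPKM, the most of any library where it was read. In naive 2 it was worth 0.822 FPKM, the least of the naive libraries. The part of depth was not tested.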
